A study of Homo sapiens with 9 samples.

Results

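Genes for chromatin modifiers and remodellers were followed in A673, an established human line of Ewing sarcoma whose translocation makes the EWS/FLI fusion. The list names 48 genes for histone acetyltransferases and coactivators, bromodomain readers, lysine demethylases and methyltransferases, SWI/SNF and NuRD subunits, corepressors, DNA methylation proteins and ASXL1. Every probe set of the array that names one of them as its only gene was taken, which gave 114 probe sets for 45 genes, of 11963 genes named in this way on the array. Of these, 44 were bright enough to be tested, among 9100 genes in all. KMT2D, a histone H3 lysine 4 methyltransferase, lay below the filter of 53.3 on its 3 probe sets, the brightest of which had a mean signal of 38.1. The coactivator NCOA3 and the corepressor scaffolds NCOR1 and SIN3A were not analysed here.

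The arrays fall into 5 groups of the same parental line. Transfection for 48 hours with 5 nM siRNA gave 2 arrays with EZH2 siRNA no.2, 1 array with another EZH2 siRNA that carries no number in its title (the unnumbered EZH2 siRNA) and 2 arrays with a control siRNA. Treatment for 24 hours gave 2 arrays with 100 nM trichostatin A (TSA) and 2 arrays with 0.01% DMSO, its solvent. Titles describe replicates as biological without saying whether cultures were separate, so a p here reflects only how far these arrays spread, which may be technical. All values are MAS5 signals, a summary of probe brightness on a linear scale, and are given in the order replicate 1, replicate 2. In bulk RNA, fewer cells of a kind and less RNA per cell cannot be told apart.

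Chromatin modifiers set how open a stretch of DNA is. Acetyltransferases such as EP300 add acetyl groups to histone tails, bromodomain proteins bind them, and histone deacetylases, which TSA inhibits, remove them. EZH2 is the methyltransferase of Polycomb repressive complex 2 and methylates histone H3 at lysine 27, a mark that the demethylases KDM6A and KDM6B remove. SWI/SNF complexes slide or evict nucleosomes with the energy of an ATPase, SMARCA4 or SMARCA2, and antagonise Polycomb repression. In Ewing sarcoma, EWS/FLI recruits SWI/SNF and EP300 to its enhancers and uses the CHD4-containing NuRD complex and KDM1A for repression.

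The siRNA target itself gave the check of the labels. EZH2 had signals of 572 and 271 with EZH2 siRNA no.2 and 681 with the unnumbered EZH2 siRNA, against 1130.1 and 1172 with the control siRNA, and of 1257 and 1055 in TSA, against 990.1 and 861 in DMSO. All 3 EZH2 siRNA arrays lay below both control arrays. For no.2 the log2 difference was −1.48 (SE 0.32, limma unadjusted p = 0.00066, adjusted p = 0.862). The siRNA target itself thus did not pass an adjusted p under 0.05, so a gene that does not pass is not shown to be unchanged. Array medians ran from 125 to 159, with the lowest on control siRNA replicate 1. The hybridisation control probe sets had mean log2 signals of 9.80 to 10.16 on the replicate 1 arrays and the unnumbered array, and 10.43 to 10.53 on the replicate 2 arrays. Values by replicate number are therefore given below. Within replicate 1 this level still differed, at 9.81 with EZH2 siRNA no.2 and 10.16 with the control siRNA. The ratio of 3' to 5' signal of ACTB, a sign of RNA quality, was 1.25 and 1.44 in TSA, against 1.14 and 1.29 in DMSO, and 1.04 and 1.24 with EZH2 siRNA no.2, against 1.03 and 1.28 with the control siRNA. Of 8 Ewing sarcoma markers, NR0B1 and LIPI had no probe set and the other 6 read 777 or more on every array, with CD99 at 14839.9 to 19651. Their summed signal was 33879.9 to 34159.5 with EZH2 siRNA no.2, against 37782 to 48458 with the control siRNA, and 36735 to 39989 in TSA, against 40741 to 41019.9 in DMSO, lower without overlap in both. PPP1R1A, singled out after its values were seen, had 1044 and 777 with EZH2 siRNA no.2, against 2464 and 3209 with the control siRNA, and 887 and 1394 in TSA, against 3027 and 2121 in DMSO (limma adjusted p = 0.862 and 1.00). Not all 6 Ewing sarcoma markers were lower. The log2 difference was 0.22 for BCL11B with EZH2 siRNA no.2 and 0.59 for CCND1 with TSA, both with overlap. The rest were negative in each comparison. The summed signal with EZH2 siRNA no.2, against the control siRNA, was 396 to 500.4, against 441 to 444, for 4 blood markers, 129 to 150.2, against 129 to 195, for 5 epithelial markers, 175 to 194, against 163 to 183, for 4 endothelial markers and 987 to 1242, against 810.2 to 964, for 4 fibroblast markers. In TSA, against DMSO, the blood sum was 460.1 to 603, against 476 to 651, the epithelial sum 116 to 142, against 109 to 117, the endothelial sum 143 to 228, against 143 to 167, and the fibroblast sum 929 to 2104, against 1217 to 1347. The blood marker CD3E, also singled out after its values were seen, was higher without overlap in TSA, at 123 and 142, against 69.7 and 86.5 in DMSO. Its log2 difference was 0.61 (SE 0.44, limma unadjusted p = 0.191). The blood marker CD79A went the other way, with overlap (log2 difference −0.24, SE 0.29). The part of these lists in the differences below was not tested.

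With EZH2 siRNA no.2, the ATPase gene SMARCA4, the acetyltransferase gene KAT2B, the demethylase gene KDM6B, the ATPase gene SMARCA2 and the NuRD gene MTA1 stood highest relative to the control siRNA, and the methyltransferase gene KMT2A, the bromodomain gene BRD2 and the corepressor gene RCOR1 lowest. By limma, 0 of 44 members and 0 of 9100 genes had an adjusted p under 0.05. SMARCA4 and KDM6B, both higher, were the 2 of 44 members with an unadjusted p under 0.05, where 5.71% of all genes tested had one and 3.96% had one and were higher. KDM6B was not among them after quantile normalization (SMARCA4 and MTA1) or scaling to one median (SMARCA4 and BRD2), nor without EZH2 siRNA no.2 replicate 2 (SMARCA4 and SMARCA2). Without control siRNA replicate 1 they were KMT2A and RCOR1, both lower, and SMARCA4 (7.09% of all genes), and without control siRNA replicate 2 they were CREBBP, EP300 and KAT2B, all higher (5.12% of all genes). Signals did not overlap between the groups for 13 members that were higher and 2 that were lower, against 22.8% and 13.1% of all genes. The difference was positive for 28 of 44 members (58.5% of all genes), with a median log2 difference of 0.11, where all genes had 0.076.

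With TSA, KDM5B, EP300, KAT2B, SMARCC1 and SMARCE1 stood highest relative to DMSO, and KDM4A and KMT2A lowest, each by the probe set that represents the gene. By limma, 0 of 44 members had an adjusted p under 0.05 and 0 had an unadjusted p under 0.05, where 2.62% of all genes had the second. Without TSA replicate 2 there were 5 such members, all higher: KDM5B, ASXL1, SMARCA4, SMARCC1 and KDM3B, where 8.34% of all genes had one. The difference was positive for 37 of 44 members, against 53.7% of all genes, with a median log2 difference of 0.22 (all genes 0.027). Without TSA replicate 1 this count was 24 of 44, where 48.8% to 54.2% of all genes were positive over the runs with 1 array left out. Signals did not overlap for 13 higher members and 1 lower member, against 15.8% and 13.1% of all genes.

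**Figure D1:**
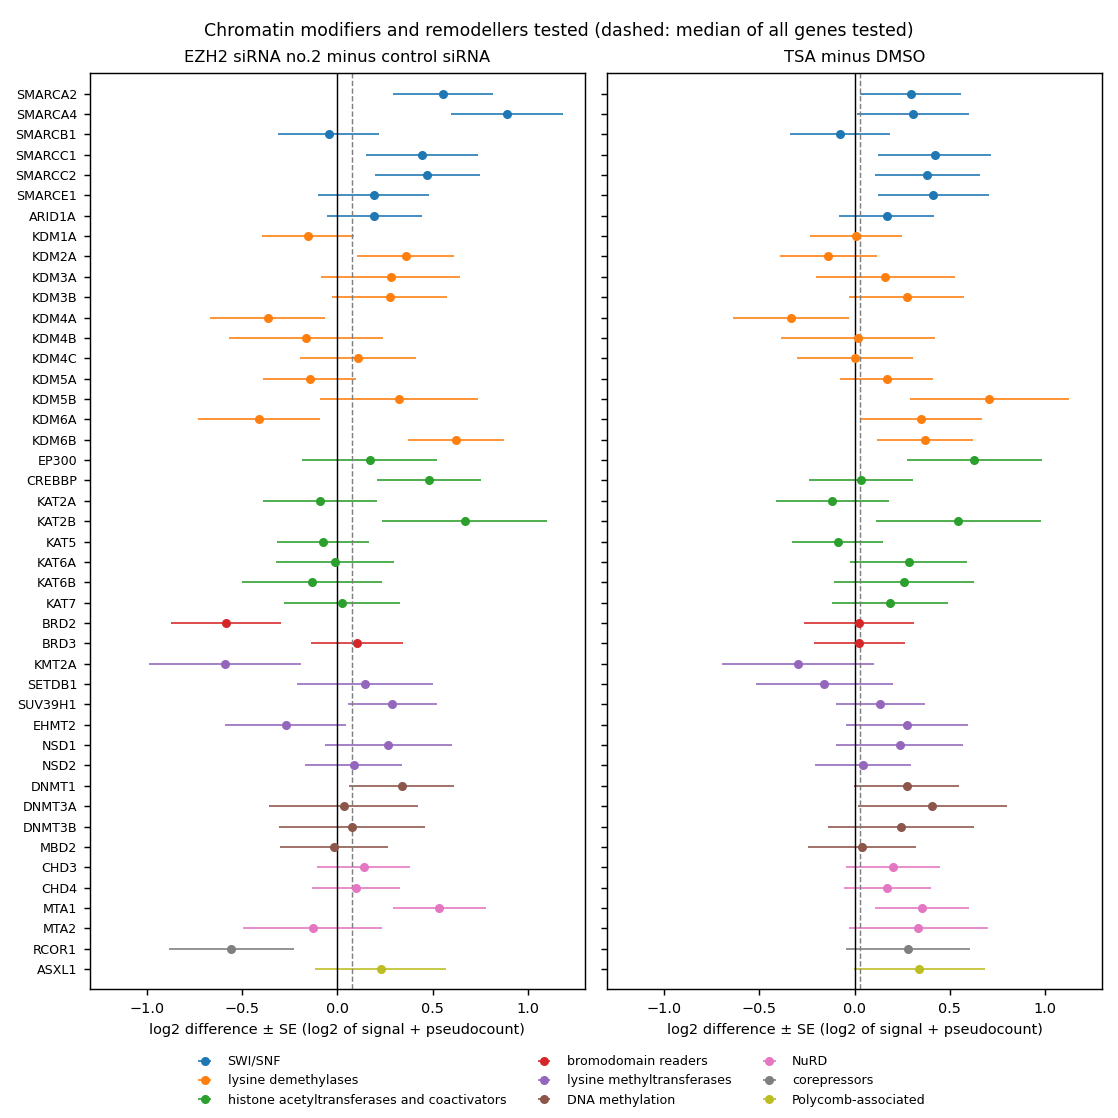
Log2 difference with its standard error for each of the 44 members tested, coloured by class, for EZH2 siRNA no.2 minus control siRNA on the left and TSA minus DMSO on the right. The dashed line is the median of all 9100 genes, 0.076 and 0.027. With TSA 37 of the 44 points lie to the right of 0, and with EZH2 siRNA no.2 28 do.

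SWI/SNF subunits were higher in 6 of 7 cases in both comparisons, with a median log2 difference of 0.44 with EZH2 siRNA no.2 and 0.30 with TSA. Of all genes, 58.5% and 53.7% were positive, with medians of 0.076 and 0.027. SMARCA4, one of the alternative ATPases of the complex, had signals of 3365 and 3254 with EZH2 siRNA no.2 and 3214 with the unnumbered EZH2 siRNA, against 1943 and 1618 with the control siRNA. The 3 EZH2 siRNA arrays lay close together and above both control arrays (log2 difference 0.89, SE 0.29, limma unadjusted p = 0.0108, adjusted p = 0.862 for no.2). By replicate number the difference was 0.78 in replicate 1 and 1.00 in replicate 2. In TSA the signals were 4523 and 2378, against 2668 and 2635 in DMSO. Only TSA replicate 1 stood above DMSO (log2 difference 0.30, SE 0.29, limma adjusted p = 1.00), and without it the log2 difference was −0.16. Both DMSO arrays, which had no siRNA against EZH2, stood above both control siRNA arrays as well (log2 difference 0.57). Of 6 SMARCA4 probe sets above the filter, all were positive with EZH2 siRNA no.2, and the other 5 read 0.033 to 0.62. With the unnumbered EZH2 siRNA those 5 read −0.051 to 0.69, where the first set read 0.85.

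SMARCA2, the other ATPase, had signals of 544 and 411 with EZH2 siRNA no.2 and 599.8 with the unnumbered EZH2 siRNA, against 314 and 314 with the control siRNA. The control arrays were nearly equal and below every EZH2 siRNA array (log2 difference 0.56, SE 0.26, limma unadjusted p = 0.0573, adjusted p = 0.862). Its TSA signals were 576 and 507, against 392 and 485 in DMSO, without overlap (log2 difference 0.29, SE 0.26, limma adjusted p = 1.00). The probe set behind these values carries the x suffix, which Affymetrix gives to sets that may bind related transcripts. The other 3 above the filter read −0.0064, 0.24 and 0.49 with EZH2 siRNA no.2, and 0.17, 0.18 and −0.13 with TSA. SMARCC1, a core scaffold subunit, had 2816 and 2422 with EZH2 siRNA no.2, against 2362 and 1549 with the control siRNA (log2 difference 0.44, SE 0.29, limma adjusted p = 0.881), and 3821 and 2320.1 in TSA, against 2254 and 2189 in DMSO (log2 difference 0.42, SE 0.29, limma adjusted p = 1.00). Without TSA replicate 1 the TSA difference was 0.062. Neither pair of groups overlapped, and all 4 of its probe sets were positive with EZH2 siRNA no.2, at 0.34 to 0.61. With TSA the other SMARCC1 sets read 0.63, 0.14 and −0.094, so the sign differed between probe sets.

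Its paralogue SMARCC2 also showed no overlap in either comparison, with log2 differences of 0.47 for EZH2 siRNA no.2 and 0.38 for TSA. SMARCE1, the DNA-binding HMG subunit, gave 0.19 and 0.41, and ARID1A, the large subunit of the BAF form of the complex, 0.19 and 0.17. SMARCB1, a core subunit lost in rhabdoid tumours, was the exception, at −0.045 and −0.077. The standard errors of these 4 genes were 0.25 to 0.29, and none passed. In DMSO against the control siRNA, which shares arrays with both comparisons, 6 of 7 SWI/SNF members were positive too, with a median of 0.21. Of all genes, 56.6% were positive there, with a median of 0.051.

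**Figure D2:**
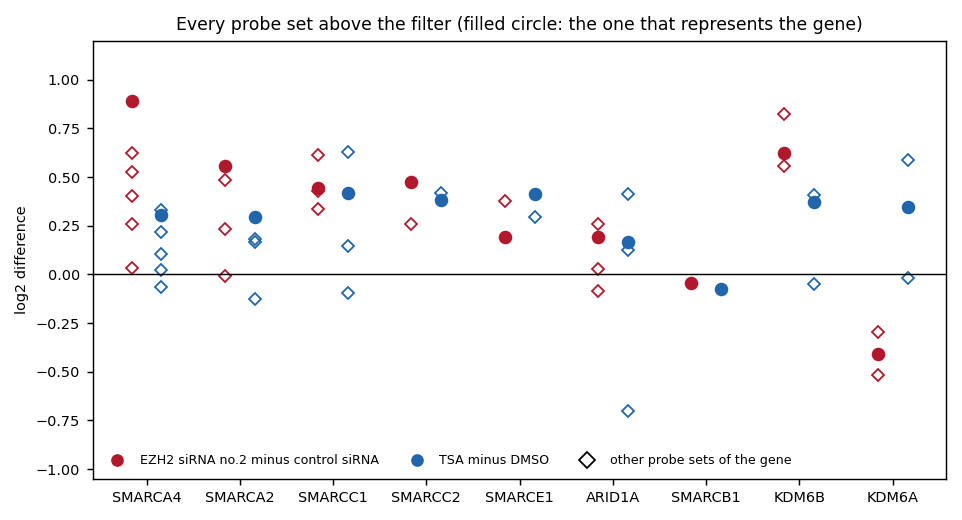
Log2 difference of every probe set above the filter for the 7 SWI/SNF members tested, KDM6B and KDM6A, with EZH2 siRNA no.2 minus control siRNA in red and TSA minus DMSO in blue. Filled circles are the probe sets that represent the gene and open diamonds the others. All 6 SMARCA4 and all 3 KDM6B probe sets are above 0 with EZH2 siRNA no.2, and all 3 KDM6A probe sets are below it.

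The H3 lysine 27 demethylases had differences of opposite sign with EZH2 siRNA no.2, neither of which passed at an adjusted p under 0.05. KDM6B had signals of 631 and 794 with EZH2 siRNA no.2 and 526 with the unnumbered EZH2 siRNA, against 477 and 427 with the control siRNA. All 3 EZH2 siRNA arrays lay above both control arrays (log2 difference 0.62, SE 0.25, limma unadjusted p = 0.0311, adjusted p = 0.862 for no.2). TSA arrays read 635 and 765, against 518 and 550.2 in DMSO, again without overlap (log2 difference 0.37, SE 0.25, limma adjusted p = 1.00). Its other probe sets read 0.82 and 0.55 with EZH2 siRNA no.2, 1.15 and 0.60 with the unnumbered EZH2 siRNA, where the first set read 0.21, and 0.41 and −0.050 with TSA. KDM6A, the X-linked relative, had 339 and 376 with EZH2 siRNA no.2 and 501 with the unnumbered EZH2 siRNA, against 396 and 588 with the control siRNA. EZH2 siRNA no.2 lay below both control arrays and the unnumbered array between them (log2 difference −0.41, SE 0.32, limma adjusted p = 0.905). The TSA values were 774 and 439.5, against 404 and 509 in DMSO, with overlap (log2 difference 0.35, SE 0.32, limma adjusted p = 1.00). The TSA effect minus the EZH2 siRNA no.2 effect was 0.76 for KDM6A (SE 0.45, limma adjusted p = 0.999), so these effects were not shown to differ.

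KDM5B, a histone H3 lysine 4 demethylase, had signals of 951 and 403 in TSA, against 449 and 306 in DMSO (log2 difference 0.71, SE 0.42, limma adjusted p = 1.00), the largest TSA difference among the probe sets that represent the members. The groups overlapped, since TSA replicate 2 lay below DMSO replicate 1, and without TSA replicate 1 the log2 difference was 0.11. With EZH2 siRNA no.2 KDM5B had 455 and 566, against 283 and 562 with the control siRNA, again with overlap (log2 difference 0.32, SE 0.42, limma adjusted p = 0.939). KDM2A, a CpG-island-binding demethylase of H3 lysine 36, had 959 and 989.6 with EZH2 siRNA no.2 and 1156 with the unnumbered EZH2 siRNA, against 787 and 721 with the control siRNA. These groups did not overlap (log2 difference 0.36, SE 0.25, limma adjusted p = 0.885), and its other probe sets read 0.81 and 0.082 with EZH2 siRNA no.2. In TSA it had 671 and 948, against 829 and 935 in DMSO (log2 difference −0.14, SE 0.25, limma adjusted p = 1.00), while the same sets read 0.53 and 0.34 there, so the sign differed between probe sets. KDM1A (LSD1), the flavin-dependent demethylase of the CoREST complex, had 2046 and 1634 with EZH2 siRNA no.2, against 1832 and 2269 with the control siRNA, and 2269.6 and 2061 in TSA, against 2287 and 2024 in DMSO. Both pairs overlapped, with log2 differences of −0.16 (SE 0.24) and 0.0075 (SE 0.24).

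By the probe set that represents each gene, the other 6 demethylases stayed within log2 differences of −0.36 and 0.28 with EZH2 siRNA no.2. With TSA they stayed within −0.33 and 0.27. KDM4A, which acts on H3 lysine residues, was the lowest of them in both, at −0.36 and −0.33, but its other probe set read 0.061 and 0.042. On the first set the TSA arrays lay below both DMSO arrays. KDM3A and KDM3B, which remove methyl groups from H3, gave 0.28 and 0.28 with EZH2 siRNA no.2, without overlap in either, and 0.16 and 0.27 with TSA. The other KDM3B probe set read 0.22 with EZH2 siRNA no.2 and 0.52 with TSA. The KDM4A relatives KDM4B and KDM4C gave −0.16 and 0.11 with EZH2 siRNA no.2, and 0.016 and 0.00074 with TSA. The other KDM4B probe sets above the filter differed in sign. They read −0.38 to 0.065 with EZH2 siRNA no.2 and −0.50 to 0.22 with TSA. The KDM5B relative KDM5A gave −0.14 and 0.17, with no overlap in TSA, and its other probe set read 0.12 and 0.26.

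**Figure D3:**
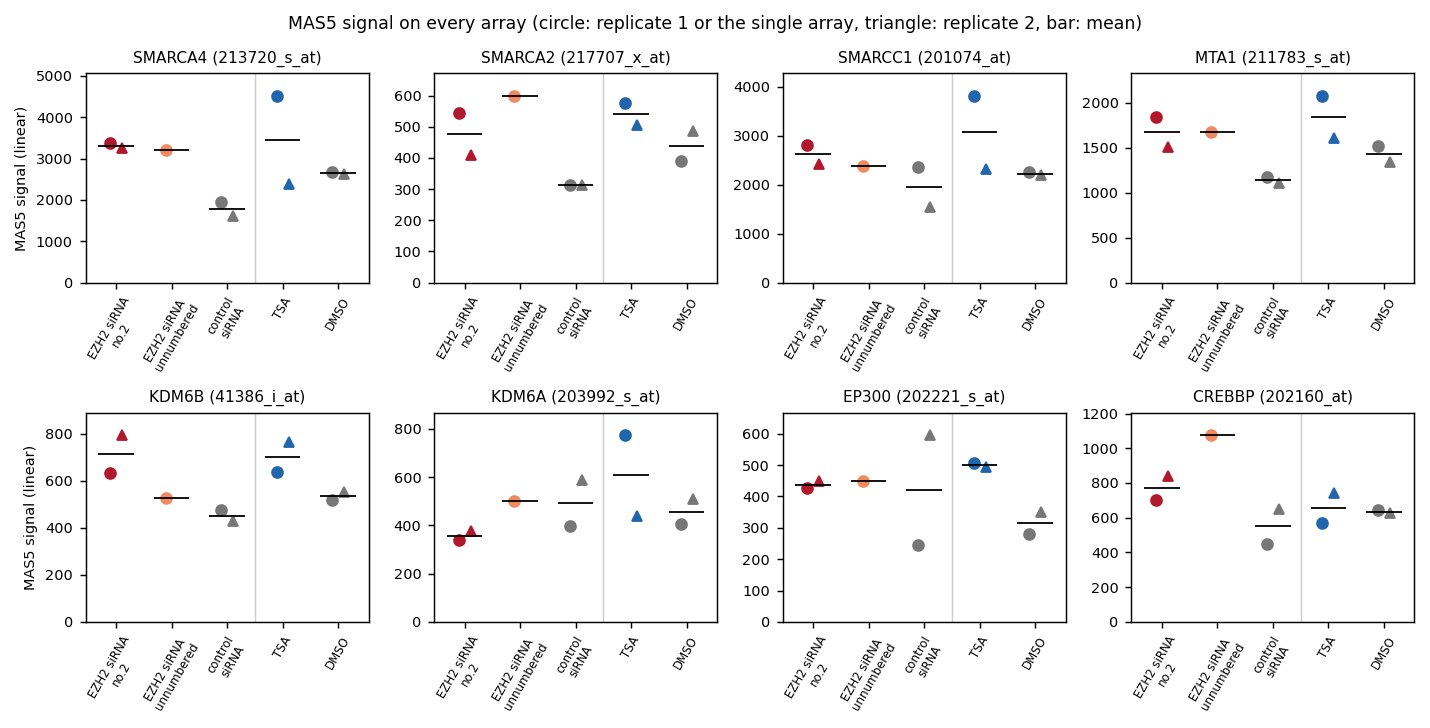
MAS5 signal on a linear axis that starts at 0, for 8 members on all 9 arrays, with circles for replicate 1 and the single unnumbered array, triangles for replicate 2 and a bar at the group mean. SMARCA4, SMARCA2, MTA1 and KDM6B are higher on all 3 EZH2 siRNA arrays than on both control siRNA arrays, while EP300 overlaps there and is higher on both TSA arrays than on both DMSO arrays.

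Among the acetyltransferases, the paralogues EP300 and CREBBP acetylate histone H3 at enhancers. EP300 had signals of 505 and 493 in TSA, against 281 and 351 in DMSO. The TSA arrays lay above both DMSO arrays (log2 difference 0.63, SE 0.35, limma unadjusted p = 0.102, adjusted p = 1.00), by 0.79 in replicate 1 and 0.46 in replicate 2. Its other probe set read 0.21. With EZH2 siRNA no.2 EP300 had 426 and 448, against 247 and 596 with the control siRNA, where both values lay between the control arrays (log2 difference 0.17, SE 0.35, limma adjusted p = 0.967). CREBBP had 703 and 839.7 with EZH2 siRNA no.2 and 1077 with the unnumbered EZH2 siRNA, against 451 and 652 with the control siRNA. All 3 EZH2 siRNA arrays were above both control arrays (log2 difference 0.48, SE 0.27, limma adjusted p = 0.870 for no.2). In TSA CREBBP had 568 and 742, against 644 and 626 in DMSO, with overlap (log2 difference 0.031, SE 0.27, limma adjusted p = 1.00). KAT2B (PCAF), a coactivator acetyltransferase, was dim, with signals of 30.8 to 123 over the 9 arrays. Its log2 differences were 0.67 with EZH2 siRNA no.2, with overlap, and 0.54 with TSA, without overlap (SE 0.43 in both).

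By the probe set that represents each gene, the other 5 acetyltransferases kept within log2 differences of −0.13 to 0.025 with EZH2 siRNA no.2, and all overlapped there. KAT2A (GCN5), the SAGA acetyltransferase, gave −0.12 with TSA, and KAT5 (TIP60), the acetyltransferase of the NuA4 complex, −0.090. KAT6A and KAT6B, which acetylate histone H3, gave 0.28 and 0.26, and KAT7 (HBO1), which works at replication origins, 0.19. KAT6A, KAT6B and KAT7 were positive in TSA replicate 1, at 0.65, 0.87 and 0.48, and negative in replicate 2, at −0.088, −0.35 and −0.11.

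BRD2, a bromodomain reader of acetylated histones, was lower with EZH2 siRNA no.2, at 2339 and 1622, against 2678 and 3220.3 with the control siRNA. The groups did not overlap (log2 difference −0.59, SE 0.29, limma unadjusted p = 0.0662, adjusted p = 0.862), but the unnumbered EZH2 siRNA array, at 2937, lay between the control arrays, and the other BRD2 probe sets read −0.26 and −0.15 for no.2. Its TSA signals were 2756 and 2064, against 2877 and 1919 in DMSO (log2 difference 0.021, SE 0.29). Its relative BRD3 gave 0.10 and 0.025.

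None of the 6 methyltransferases tested had an unadjusted p under 0.05 in either comparison. KMT2A (MLL1), the H3 methyltransferase rearranged in leukaemia, had the lowest value of any member with EZH2 siRNA no.2, but the groups overlapped (log2 difference −0.59, SE 0.40, limma adjusted p = 0.881). Its 6 probe sets above the filter ran from −0.59 to 0.47. With TSA the set that represents it read −0.30 and the other 5 were all positive, at 0.12 to 0.83. SUV39H1, which trimethylates H3 at a lysine in heterochromatin, showed no overlap in either comparison, with differences of 0.29 with EZH2 siRNA no.2 and 0.13 with TSA (SE 0.23 in both). EHMT2 (G9a) gave −0.27 with EZH2 siRNA no.2 and 0.27 with TSA, SETDB1, which works with KRAB zinc finger proteins, 0.14 and −0.16. The H3 methyltransferases NSD1 and NSD2 gave 0.27 and 0.085 with EZH2 siRNA no.2, and 0.24 and 0.044 with TSA, and overlapped throughout.

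DNA methylation genes overlapped in both comparisons. DNMT1, the maintenance methyltransferase, had signals of 2686 and 1904 with EZH2 siRNA no.2, against 1661 and 1918 with the control siRNA (log2 difference 0.34, SE 0.28, limma adjusted p = 0.912), and 2123 and 2478 in TSA, against 1551 and 2313 in DMSO (log2 difference 0.27, SE 0.28, limma adjusted p = 1.00). DNMT3A, a de novo methyltransferase, had 296 and 139 with EZH2 siRNA no.2, against 214 and 185 with the control siRNA. Replicate 1 lay above its control and replicate 2 below it, as with TSA, where the signals were 286 and 141 in TSA, against 132 and 162 in DMSO. DNMT3B, its paralogue, had 167 and 311 with EZH2 siRNA no.2, against 147 and 313 with the control siRNA, and 227 and 294 in TSA, against 237 and 194 in DMSO. The log2 differences were 0.034 and 0.41 for DNMT3A and 0.076 and 0.24 for DNMT3B, with SE 0.38 to 0.39. Once all arrays were scaled to one median, both EZH2 siRNA no.2 values became negative (−0.094 and −0.053). MBD2, which binds methylated CpG and joins NuRD, gave −0.019 and 0.040.

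In the NuRD complex, MTA1, a metastasis-associated subunit, had signals of 1840.4 and 1513 with EZH2 siRNA no.2 and 1673 with the unnumbered EZH2 siRNA, against 1180.1 and 1107 with the control siRNA. All 3 arrays were above both control arrays (log2 difference 0.54, SE 0.24, limma unadjusted p = 0.0502, adjusted p = 0.862 for no.2). TSA arrays read 2080.5 and 1614, against 1521 and 1342 in DMSO, again without overlap (log2 difference 0.35, SE 0.24, limma adjusted p = 1.00). Its second, dimmer probe set read 0.41 with EZH2 siRNA no.2 and −0.11 with TSA. DMSO lay above the control siRNA for MTA1 too (log2 difference 0.32). MTA2, its paralogue, was dim and gave −0.13 and 0.33. The ATPases CHD3 and CHD4 gave 0.14 and 0.10 with EZH2 siRNA no.2, and 0.20 and 0.17 with TSA, and the other CHD3 probe set read −0.088 and −0.16. The other CHD4 probe sets read 0.75 and 0.63 with TSA, above the one that represents the gene, with limma unadjusted p of 0.0555 and 0.0535 and adjusted p of 1.00 over every probe set.

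RCOR1 (CoREST), the scaffold that joins KDM1A to histone deacetylases, had signals of 1791 and 1233 with EZH2 siRNA no.2 and 2702 with the unnumbered EZH2 siRNA, against 1555 and 3104 with the control siRNA. The control arrays lay far apart and the difference was negative only in replicate 2, with 0.20 in replicate 1 and −1.31 in replicate 2 (log2 difference −0.56, SE 0.33, limma adjusted p = 0.870). The TSA values were 2523 and 2079.9, against 1996 and 1773 in DMSO, without overlap (log2 difference 0.28, SE 0.33, limma adjusted p = 1.00). RCOR1 had the largest TSA effect minus EZH2 siRNA no.2 effect of the members, 0.84 (SE 0.46, limma unadjusted p = 0.0966, adjusted p = 0.999). No member had an unadjusted p under 0.05 for that difference of effects, where 1.79% of all genes had one. ASXL1, a subunit of the Polycomb-associated histone H2A deubiquitinase, gave 0.23 with EZH2 siRNA no.2 and 0.34 with TSA. By replicate number its TSA difference was 1.04 in replicate 1 and −0.36 in replicate 2. Its 3 probe sets read 0.19 to 0.36 with EZH2 siRNA no.2.

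The EZH2 siRNA no.2 and TSA comparisons share no array, so their directions can be set side by side. The sign was the same for 31 of 44 members, where it was the same for 60.8% of all genes. By the probe set that represents each gene, 6 members showed no overlap in both comparisons and in the same direction, against 8.8% of all genes. These were KDM6B, SUV39H1, SMARCA2, SMARCC1, SMARCC2 and MTA1, all higher. They are 3 of 7 SWI/SNF members, 1 of 4 NuRD members, 1 of 11 demethylases and 1 of 6 methyltransferases, and their log2 differences were 0.29 to 0.62 with EZH2 siRNA no.2 and 0.13 to 0.42 with TSA. All 6 were also positive in DMSO against the control siRNA, at 0.077 to 0.44. Their other probe sets above the filter did not all share the sign. With TSA, another set was negative for KDM6B (−0.050), SMARCA2 (−0.13), SMARCC1 (−0.094) and MTA1 (−0.11). The remaining sets were positive there, and with EZH2 siRNA no.2 all were but 1 of SMARCA2 (−0.0064).

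The direction of the members differed by replicate number. In replicate 1, 35 of 44 members were positive with EZH2 siRNA no.2, with a median of 0.23, and in replicate 2, 20 were, with a median of −0.027, while all genes gave 59.4% and 55.1%. With TSA the counts were 34 and 26, with medians of 0.36 and 0.027, where all genes gave 54.8% and 50.1%. DMSO against the control siRNA, with neither EZH2 siRNA nor TSA on either side, gave 34 and 17 of 44, where all genes gave 57.3% and 53.0%. The SWI/SNF members were positive in 6 and 5 of 7 cases with EZH2 siRNA no.2 and in 6 of 7 cases in both TSA replicates, but their TSA median was 0.67 in replicate 1 and 0.059 in replicate 2. Control siRNA replicate 1, which enters the EZH2 siRNA and the DMSO counts of replicate 1, had the lowest array median, and its part in these counts was not tested.

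**Figure D4:**
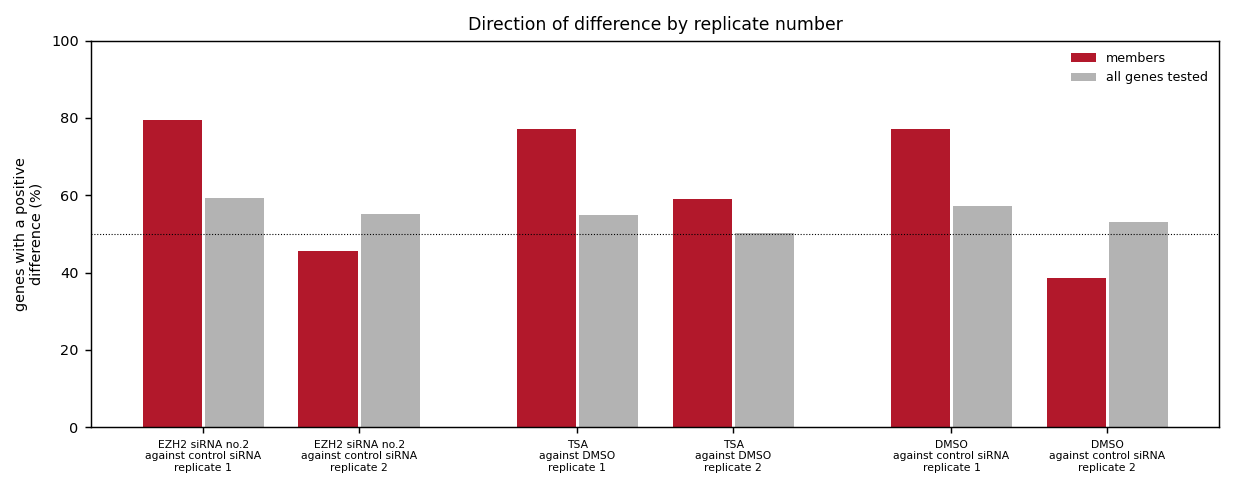
Share of genes with a positive log2 difference, in percent, for the 44 members in red and all 9100 genes tested in grey, by comparison and replicate number. The members lie above all genes in replicate 1 of each comparison (79.5%, 77.3% and 77.3%) and below them in replicate 2 with EZH2 siRNA no.2 (45.5%) and in DMSO against the control siRNA (38.6%).

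The unnumbered EZH2 siRNA rests on 1 array, whose spread was taken from the other groups. By limma, 5 of 44 members had an unadjusted p under 0.05, 4 of them higher and 1 lower, against 5.13% of all genes, 2.9% higher and 2.23% lower, and 0 genes had an adjusted p under 0.05. CREBBP (0.96, SE 0.33), SMARCA2 (0.88, SE 0.32), SMARCA4 (0.85, SE 0.36) and CHD3 (0.72, SE 0.30) were higher on this log2 scale by the probe set that represents each, and MTA2 (−1.26, SE 0.45) was lower, each with limma adjusted p = 0.935. The second CHD3 probe set read −0.076 for the unnumbered EZH2 siRNA. There the other SMARCA4 sets above the filter read −0.051 to 0.69, and the other SMARCA2 sets 0.11 to 0.56. KDM2A read 0.60 by the set that represents it and 1.13 and 0.91 by its others. The array has the low hybridisation control level, which control siRNA replicate 2 does not share, and with a block by that level SMARCA4 was not among the 5 and KDM2A was (8.11% of all genes). The difference was positive for 28 of 44 members, against 56.1% of all genes. Both EZH2 siRNA comparisons share the control arrays. The members named for the unnumbered EZH2 siRNA changed when 1 of these arrays was left out. Without control siRNA replicate 1, KMT2A (−1.56) and SMARCE1 (0.85) entered, and CREBBP and MTA2 left. Without control siRNA replicate 2, EP300 (0.81) entered, and SMARCA4 and CHD3 left. In DMSO against the control siRNA no member had an unadjusted limma p under 0.05, where 4.59% of all genes had one, and 24 of 44 were positive (56.6% of all genes).

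The 4 members higher with EZH2 siRNA no.2 and lowest in p are shown by their promoter, since the letters there can be set against all promoters. The window runs from 250 bases before to 50 bases after the most upstream start listed, from RefSeq on GRCh38.p14, and all 4 lie on the plus strand, at chr19:10960780-10961079, chr17:7833967-7834266, chr14:105419577-105419876 and chr9:2015097-2015396. Capitals mark the GC box GGGCGG on either strand.
SMARCA4: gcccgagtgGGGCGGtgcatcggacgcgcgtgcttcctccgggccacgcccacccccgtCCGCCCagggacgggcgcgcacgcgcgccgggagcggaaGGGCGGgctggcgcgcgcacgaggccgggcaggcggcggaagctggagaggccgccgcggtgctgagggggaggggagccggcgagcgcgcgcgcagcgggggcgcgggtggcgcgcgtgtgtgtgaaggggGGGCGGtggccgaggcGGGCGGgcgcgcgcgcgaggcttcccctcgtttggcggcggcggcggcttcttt
KDM6B: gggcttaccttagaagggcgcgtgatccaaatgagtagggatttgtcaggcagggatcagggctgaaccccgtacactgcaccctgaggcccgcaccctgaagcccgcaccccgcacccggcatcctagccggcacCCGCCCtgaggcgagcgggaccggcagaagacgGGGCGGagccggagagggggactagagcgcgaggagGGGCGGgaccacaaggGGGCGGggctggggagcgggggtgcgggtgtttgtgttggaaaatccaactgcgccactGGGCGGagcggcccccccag
MTA1: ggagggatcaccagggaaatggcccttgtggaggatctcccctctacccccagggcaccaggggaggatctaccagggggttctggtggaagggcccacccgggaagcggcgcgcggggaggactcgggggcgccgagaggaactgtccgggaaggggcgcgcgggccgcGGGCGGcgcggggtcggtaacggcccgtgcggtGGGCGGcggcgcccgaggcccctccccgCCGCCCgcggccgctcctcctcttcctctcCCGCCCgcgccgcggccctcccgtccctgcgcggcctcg
SMARCA2: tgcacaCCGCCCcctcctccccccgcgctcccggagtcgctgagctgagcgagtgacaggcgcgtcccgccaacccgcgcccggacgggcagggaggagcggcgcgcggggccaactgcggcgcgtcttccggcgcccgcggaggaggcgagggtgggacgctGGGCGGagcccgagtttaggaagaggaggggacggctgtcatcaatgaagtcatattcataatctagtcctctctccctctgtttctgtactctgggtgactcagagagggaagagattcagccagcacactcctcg
The SMARCA4 and KDM6B windows hold 5 GC boxes each, that of MTA1 4 and that of SMARCA2 2, and 81.3%, 69.3%, 77.7% and 66.7% of their bases are G or C. On either strand, 0 of the 4 windows hold CCAAT, or CACGTG, an E-box, or GGAAGGAA, as in EWS/FLI repeats, or TGACG, part of the cyclic AMP response element. The motif CCGGAA, the core of an ETS site, is held by SMARCA2 1 time and by 0 of the other 3. Promoters were listed for 45 of the 48 genes, which include NCOA3, NCOR1, SIN3A and KMT2D and not SMARCC1, SMARCC2 and KAT6A, and 30 of them (66.7%) hold GGGCGG, against 44.5% of 27305 promoters, at a median G and C content of 66.7%, against 58.3%. CACGTG was in 8 (17.8%, against 7.41%), CCGGAA in 14 (31.1%, against 17.6%), CCAAT in 11 (24.4%, against 35.7%) and TGACG in 13 (28.9%, against 25.0%), while GGAAGGAA was in 0, against 3.59%. A match is a description of these letters and not of a bound site.

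Other chromatin genes were counted beside the members, from a list of 161 genes of the same classes of which 127 were tested. An unadjusted limma p under 0.05 was found for 3 of 127 with EZH2 siRNA no.2, against 5.71% of all genes, and for 1 of 127, TLE4, with TSA, against 2.62%, so both shares lay below those of all genes. TLE4, a Groucho-type corepressor, had signals of 410.2 and 328 with EZH2 siRNA no.2 and 375 with the unnumbered EZH2 siRNA, against 190.5 and 123 with the control siRNA, and 735 and 286 in TSA, against 203 and 252 in DMSO. Neither EZH2 siRNA overlapped the control siRNA and TSA did not overlap DMSO (log2 differences 1.13, SE 0.39, and 0.95, SE 0.39, limma adjusted p = 0.862 and 1.00). By replicate number the TSA difference of TLE4 was 1.74 in replicate 1 and 0.17 in replicate 2. SMARCD3, a SWI/SNF subunit of muscle and neurons, was lower at −0.84 (SE 0.33), with −0.22 in replicate 1 and −1.46 in replicate 2, and TET3, a dioxygenase that oxidises methylcytosine, was higher at 1.09 (SE 0.50). The list as a whole had 65 of 127 positive with EZH2 siRNA no.2 (median 0.0083) and 77 of 127 with TSA (median 0.066).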

How the data were processed

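The authors deposited one table of intensity values for 9 human Affymetrix 3' expression arrays (22283 probe sets), made with MAS5 per the submitters' processing notes. The MAS5 version and any scaling target are not given in the sources used here, though array means after trimming all came to 500.1 to 500.2. No detection calls came with the values, so dim probe sets cannot be called absent, and only the number of arrays is known to limit the precision. Arrays of one group correlated at r = 0.933 to 0.943 (4 pairs), and arrays of different groups at r = 0.932 to 0.959 (32 pairs). These correlations took log2 signals of all 22283 probe sets, without the pseudocount and filter described below. On that scale, arrays of the same group were no more alike than arrays of different groups.

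Signals were turned into log2(signal + 25.1), the pseudocount being the 20th percentile of all values. A log2 difference on this scale understates the change of dim genes. Probe sets that name one gene were kept where their mean was at or above the 30th percentile (53.3), and each gene was represented by its brightest probe set. A model of 5 group means over the 9 arrays was fitted by limma 3.58.1 under R 4.3.3 (eBayes with trend, two-sided, Benjamini-Hochberg over 9100 genes, threshold 0.05, 4 residual and 7.40 prior degrees of freedom). With 2 arrays a side an exact permutation test has a smallest p of 0.333, so none was used. The fit was tested on simulated data with independent noise. The changes added there exceeded every member difference with EZH2 siRNA no.2, so recovery at the sizes seen here was not tested.

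Members, lists and tests were chosen with earlier results of these data known. Members were named by class, and values on every array were given for those with an unadjusted p under 0.05 or the 5 smallest p in a comparison, and for 10 genes chosen by name. Of the other chromatin genes, those with the smallest p were named. Values of the other member probe sets come from a fit over 13665 probe sets. The replicate numbers are not stated to pair samples. Alternatives are given in the closing section.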

Additional observations from a re-analysis of the deposited data

How the results depend on the processing

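The number of genes past the adjusted threshold was 0 in all 5 comparisons under every alternative run: other pseudocounts (5.42 and 87.2), quantile normalization, scaling to one median, no filter, a stricter filter (148), all probe sets tested, no trend, only the groups of a comparison, pooled EZH2 siRNAs, a replicate block, a block by hybridisation control level and each array left out. Of 656 recomputed values of the 16 members given on every array, 631 kept their direction and 25 reversed. After quantile normalization and after scaling to one median, reversals were DNMT3A (−0.10 and −0.094) and DNMT3B (−0.012 and −0.053) with EZH2 siRNA no.2, and CREBBP with TSA (−0.015 and −0.044). Scaling to one median also reversed BRD2 (−0.056) and KDM1A (−0.070) with TSA. It moved the median of all genes to −0.059 with EZH2 siRNA no.2, against 0.076, and to −0.045 with TSA, against 0.027, and gave 20 and 29 positive members, with 43.1% of all genes positive with EZH2 siRNA no.2, while the SWI/SNF count was 6 of 7 in both. Over the runs that kept every array, 43.8% to 55.3% of all genes were positive with TSA. Leaving out 1 array reversed, with EZH2 siRNA no.2, EP300 (−0.43 to 0.77), KDM5B (−0.14 to 0.79), DNMT3B (−0.41 to 0.57), DNMT3A (−0.45 to 0.52), KDM1A (−0.32 to 0.0049), and with TSA, DNMT1 (−0.012 to 0.56), BRD2 (−0.27 to 0.31), KDM1A (−0.079 to 0.094), KDM2A (−0.38 to 0.10), KDM6A (−0.043 to 0.74), SMARCA4 (−0.16 to 0.76), DNMT3A (−0.045 to 0.86), CREBBP (−0.16 to 0.22). Members with an unadjusted limma p under 0.05 with EZH2 siRNA no.2 numbered 5 with the replicate block and 5 with the block by hybridisation control level. Both blocks added MTA1, SMARCA2 and BRD2 (8.87% of all genes in each). They split the numbered arrays in the same way, so these runs are not independent, and the control level was set after the controls were seen. With the 3 EZH2 siRNA arrays as one group there were 4 (SMARCA4, SMARCA2, MTA1 and CREBBP, 8.57% of all genes). With TSA there was 1 (EP300) when only its own groups were fitted (2.14% of all genes). In DMSO against the control siRNA there was 1 with no filter (KMT2D, 4.81%), and 1 (SMARCA4) with only its own groups (5.29%), with the replicate block (7.34%) and with the other block (7.32%). With 1 array left out the counts were 2 to 3 with EZH2 siRNA no.2, 0 to 5 with TSA, 4 to 5 with the unnumbered EZH2 siRNA, 0 to 1 in DMSO and 0 to 2 for the difference of effects, and the members with a positive difference with TSA were 24 to 38. The median over members in DMSO against the control siRNA was −0.039 to 0.23. The count of 5 was without TSA replicate 2 (8.34% of all genes). TSA had 1 without control siRNA replicate 1 or 2 (2.67% and 2.68%). DMSO had 1 without control siRNA replicate 1 (5.7%) and without TSA replicate 1 or 2 (5.63% and 5.62%). The difference of effects had 2 without control siRNA replicate 1 (3.89%) and 1 without TSA replicate 1 or 2 (2.59% and 4.12%). With EZH2 siRNA no.2 the members behind the count changed with the array left out, over 4% to 7.09% of all genes. KDM6B was lost after quantile normalization and after scaling to one median. The count of 24 was without TSA replicate 1 and the median of 0.23 without control siRNA replicate 2. The deviations of same-numbered arrays from their group means correlated at 0.0529 to 0.377, and 2 pairs a comparison do not establish a pairing. The causes of these moves were not tested. The number of arrays limits the precision.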
